A study of Mus musculus with 30 samples.

Results

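Rab37 and 6 related Rab genes (Rab26, Rab27a, Rab27b, Rab3d, Rab32 and Rab38) were followed through the retinal pigment epithelium (RPE) and the bone marrow-derived macrophages (BMDMs) of 3 Mertk knockout mouse lines and C57BL/6 wild-type (B6 WT) mice. These are 7 of the 55573 genes in each of the 2 tables. Rab37 was chosen by its level in these same data, low in Mertk-/-V1 RPE and not in the other lines or in BMDMs, so its values in both tissues are given as a description with no test. The other 6 were picked as its relatives, secretory or melanosomal, to see whether they moved too.

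RNA was sequenced from RPE at P25 (6 libraries each of B6 WT and Mertk-/-V1, 3 each of Mertk-/-V2 and Mertk-/-V3) and from BMDMs (3 of each genotype), 30 libraries in all. Mertk encodes a receptor tyrosine kinase through which RPE cells and macrophages take up cell debris. The Mertk-/-V1 line lacks exon 17, was made in 129P2 embryonic stem cells and was backcrossed to C57BL/6J. It retains the neomycin cassette and carries a 129P2 segment on chromosome 2 around Mertk. The Mertk-/-V2 line lacks exon 18 through a floxed allele of C57BL/6NJ origin from which Cre was bred out. The Mertk-/-V3 line lacks exons 3 and 4 through CRISPR editing of C57BL/6NJ eggs. Both genomes were mixtures of C57BL/6J and C57BL/6NJ, with the larger C57BL/6NJ share in Mertk-/-V3. The wild-type mice came from Jackson Laboratories, with C57BL/6J listed as the strain. All 3 deletions are in the germline, each knockout is 1 line, and the 3 comparisons with B6 WT share the same B6 WT libraries. RPE cells were dislodged from posterior eyecups into a stabilizing solution, and BMDMs were grown from adult bone marrow in medium conditioned by L929 cells. The lines are called V1, V2 and V3 below. The libraries are labelled as biological replicates, and p-values measure only the spread between them. Values are normalized counts, that is, reads per gene divided by 1 size factor per library, with 14137666 to 34124049 reads on genes per RPE library and 16629659 to 25653814 per BMDM library.

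Mertk transcript was lower than in B6 WT in V1 and V3 in both tissues by limma, and in V2 it was higher in BMDMs and did not pass in RPE. In RPE the mean was 3202 ± 454 normalized counts (SD, n = 6) in B6 WT, 1177 ± 295 (n = 6) in V1, 4229 ± 945 (n = 3) in V2 and 852 ± 357 (n = 3) in V3 (limma, adjusted p = 0.0027, 0.95 and 0.0022). In BMDMs it was 2648 ± 233 in B6 WT and 865 ± 18.05 and 687 ± 36.1 in V1 and V3 (n = 3 each, limma, adjusted p = 3.3e-09 and 2.5e-10), and it was higher in V2 at 3567 ± 30.7 (log2 difference 0.43, adjusted p = 0.0013). The summed level of 8 RPE marker genes (Rpe65, Rlbp1, Lrat, Best1, Rgr, Rdh5, Ttr and Stra6) was 488448 to 879190 in B6 WT RPE, 189619 to 632445 in V1, 612337 to 824340 in V2 and 279131 to 763291 in V3. All 8 were read in every RPE group, while in BMDMs their sum was 42.3 or less and Rpe65, Lrat, Ttr and Stra6 were at 0. The sum over 10 rod photoreceptor genes was 36196 to 354004 in B6 WT RPE and 65615 to 894609 in V1 RPE. In 3 RPE libraries the RPE markers summed to far less than the median of 595970, namely V1 replicates 6 (189619) and 5 (246235) and V3 replicate 1 (279131). Results are therefore also given without them. B6 WT and V1 replicates 4 to 6 also stood apart from replicates 1 to 3, with 41.6% of the genes tested passing between these sets, and the labels give no reason for it.

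Rab proteins are small GTPases that switch between a GTP-bound form, which recruits effectors to a membrane, and a GDP-bound form. Rab3, Rab26, Rab27 and Rab37 proteins are known for regulated secretion, in which vesicles are brought to the plasma membrane and fuse with it. Rab27a also links melanosomes to myosin, and Rab32 and Rab38 deliver enzymes to the forming melanosome, the pigment granule of melanocytes and of the RPE.

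The stretch that codes for the GTP-binding P-loop is shown to compare the members at a site they share. That of Rab27b is not shown. Capitals mark the 24 bases of the P-loop codons (GxxxxGK followed by S or T) within 48 bases of coding sequence, 5′ to 3′ on the coding strand, from GENCODE mouse release 21 on GRCm38.
Rab37: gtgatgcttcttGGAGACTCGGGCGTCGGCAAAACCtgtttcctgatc
Rab26: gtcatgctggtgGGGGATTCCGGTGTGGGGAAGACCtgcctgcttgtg
Rab27a: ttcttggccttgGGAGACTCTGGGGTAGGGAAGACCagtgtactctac
Rab3d: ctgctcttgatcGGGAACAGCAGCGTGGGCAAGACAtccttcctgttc
Rab32: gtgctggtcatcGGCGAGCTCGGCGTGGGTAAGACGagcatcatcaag
Rab38: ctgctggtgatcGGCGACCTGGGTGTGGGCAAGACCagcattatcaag

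These stretches lie on chr11:115156927-115156974 (plus strand) for Rab37, chr17:24532275-24532322 (minus) for Rab26, chr9:73075448-73075495 (plus) for Rab27a, chr9:21915813-21915860 (minus) for Rab3d, chr10:10557966-10558013 (minus) for Rab32 and chr7:88430435-88430482 (plus) for Rab38, each in 1 exon. Rab26 was the nearest of them to Rab37 by letters, with 17 of 48 bases different, and Rab32 the farthest, with 21. Within the 24 P-loop bases alone Rab27a was the nearest, with 5 different, beside 7 in Rab26. The longest run of bases that a transcript of Rab37 shares with one of another member was 17 (Rab26), and the longest between any members was 32 (Rab27a and Rab27b).

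Rab37 (ENSMUSG00000020732) spans chr11:115091431-115162236 on the plus strand. Rab26 (ENSMUSG00000079657) spans chr17:24527241-24534210 on the minus strand, Rab27a (ENSMUSG00000032202) chr9:73044854-73097629 on the plus strand and Rab27b (ENSMUSG00000024511) chr18:69979131-70141605 on the minus strand. Rab3d (ENSMUSG00000019066) spans chr9:21907491-21918192 on the minus strand, Rab32 (ENSMUSG00000019832) chr10:10545002-10558265 on the minus strand and Rab38 (ENSMUSG00000030559) chr7:88430273-88491572 on the plus strand. None of the 7 lies on chromosome 2.

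Rab37, a Rab known for secretory granules, was read at 2072, 2481, 1685, 2374, 1966 and 2320 normalized counts in B6 WT RPE replicates 1 to 6. In V1 RPE it was read at 385, 275, 337, 445, 470 and 290. All 6 V1 libraries lay below every other RPE library, of which the lowest was V3 replicate 1 at 1108. The V1 mean of 367 ± 80.5 (SD, n = 6) was 17.1% of the B6 WT mean of 2150 ± 298 (n = 6), a level 5.85-fold lower. On the scale of log2(normalized count + 1), the difference was -2.56 (SE 0.20, 95% interval -2.98 to -2.14). Intervals of Rab37 here and below take no account of its choice by these values and are no test.

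Rab37 was read at 2434, 1580 and 1736 in V2 RPE and at 1108, 2288 and 2647 in V3 RPE. Both groups overlapped B6 WT. Their log2 differences from B6 WT were -0.18 (95% interval -0.69 to 0.33) and -0.18 (-0.69 to 0.34), and V1 lay 2.39 below the mean of both on that scale (a log2 difference of -2.39). V3 replicate 1, the lowest of these 6 libraries, was also the one with low RPE markers, and without the 3 low-marker libraries the log2 difference of V3 was 0.21 and that of V1 was -2.58. Within replicates 1 to 3 the V1 difference was -2.64, and within replicates 4 to 6 it was -2.49. In bulk RNA, fewer cells of a type and less RNA per cell cannot be told apart.

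**Figure D1:**
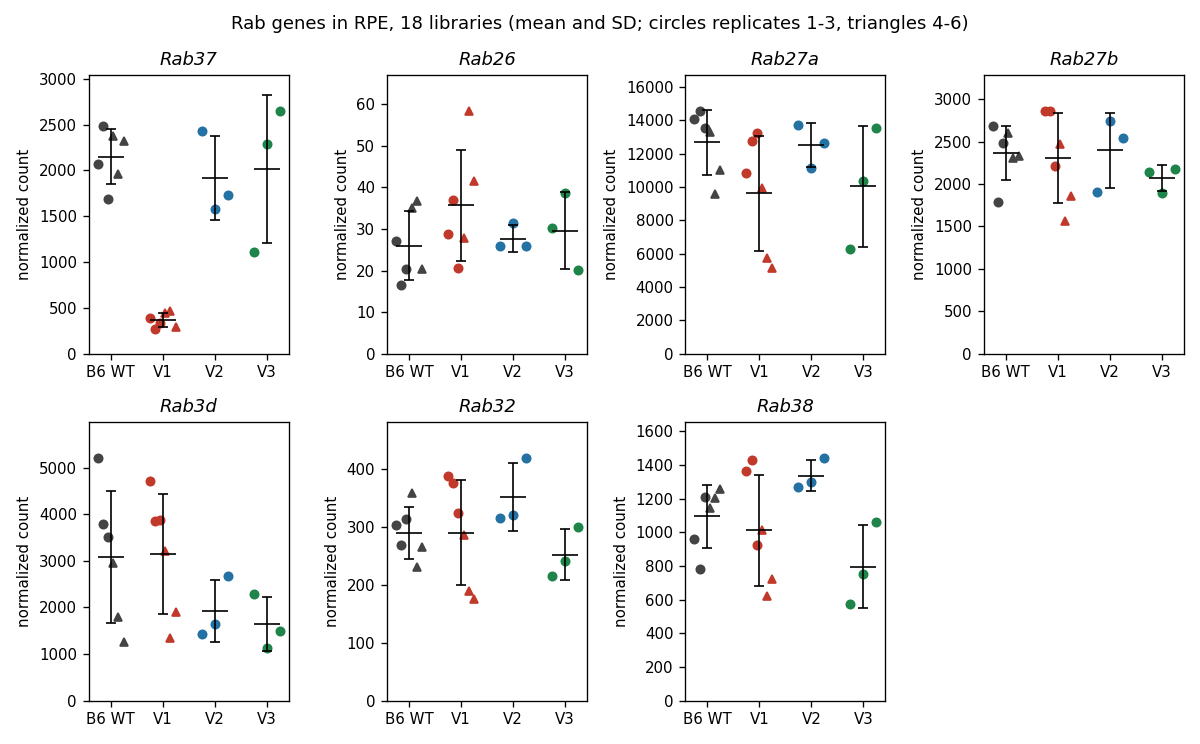
Normalized counts of the 7 Rab genes in the 18 RPE libraries, one panel per gene on a linear axis from 0, with points for libraries (circles for replicates 1 to 3, triangles for 4 to 6) and bars for the mean and SD of each genotype. The 6 V1 libraries of Rab37 sit between 275 and 470, below all 12 others, and in the other panels V1 overlaps B6 WT.

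Of the 6 other members, 0 passed the test (limma, adjusted p under 0.05) between V1 and B6 WT RPE, where 0.388% of all genes tested passed. None of the 6 had an unadjusted p under 0.05 by limma, edgeR or DESeq2 (0 by each, where 6.81% of all genes did by limma), and 0 of 6 had groups that did not overlap (1.09% of all genes).

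Among the secretory Rabs, Rab27a, which docks secretory granules and melanosomes, ran in B6 WT RPE from 9551 through a median of 13417 to 14545. In V1 RPE it ran from 5158 through 10410 to 13258, with the 2 lowest values in replicates 6 and 5. The groups overlapped, and the log2 difference was -0.47 (SE 0.24, 95% interval -0.98 to 0.03, adjusted p = 0.75 by limma). Rab27a was read at 13737, 11113 and 12623 in V2 and at 6253, 10363 and 13508 in V3. The 3 libraries lowest in Rab27a were the 3 low-marker libraries, and without them the V1 difference was -0.11 (limma, adjusted p = 0.82).

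Rab27b, the paralog of Rab27a, ran from 1787 through 2406 to 2684 in B6 WT RPE and from 1567 through 2344 to 2858 in V1 RPE. The V1 libraries spread over and beyond the B6 WT range at both ends. The log2 difference was -0.06 (SE 0.15, 95% interval -0.37 to 0.26, adjusted p = 0.95 by limma). It was read at 1902, 2743 and 2544 in V2 and at 2137, 1892 and 2173 in V3, all within or near the B6 WT range, with log2 differences of 0.01 and -0.18 (limma, adjusted p = 0.999 and 0.65).

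Rab26, a Rab of secretory granules, was scarce, with 13 to 48 reads per RPE library. It ran from 16.4 through 23.7 to 36.7 normalized counts in B6 WT and from 20.5 through 32.9 to 58.3 in V1. The highest value, 58.3, came from V1 replicate 5. The log2 difference was 0.42 (SE 0.26, 95% interval -0.13 to 0.98, adjusted p = 0.81 by limma), and 0.16 without the low-marker libraries. Rab26 was read at 25.8, 31.4 and 25.8 in V2 and at 30.1, 38.7 and 20.1 in V3. The neighbouring gene Traf7 shares 267 exon bases with Rab26 (9.36% of its exons), and how reads there were assigned is not given in the sources used here.

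Rab3d, a Rab of zymogen and other secretory granules, was read at 5210, 3782, 3508, 2945, 1801 and 1261 in B6 WT RPE and at 4715, 3854, 3883, 3206, 1333 and 1912 in V1 RPE. Both genotypes covered the same range, with a log2 difference of 0.05 (SE 0.36, 95% interval -0.71 to 0.81, adjusted p = 0.98 by limma). It was read at 1440, 1641 and 2680 in V2 and at 2280, 1139 and 1502 in V3. Of these 6 libraries, 5 lay in the lower part of the B6 WT range and V3 replicate 2 lay below it, with log2 differences of -0.59 (adjusted p = 0.96) and -0.82 (adjusted p = 0.47) by limma.

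Rab3d passed the test between the sets of replicates, where 41.6% of all genes tested passed. Its mean was 4167 ± 914 (SD, n = 3) in B6 WT replicates 1 to 3 and 2002 ± 860 (n = 3) in replicates 4 to 6, and 4151 ± 489 and 2150 ± 959 in the same sets of V1. The set term in limma was -1.08 on the log2 scale (SE 0.24, adjusted p = 0.0067). The rod genes differed between the same libraries, with sums of 36196 to 127563 in B6 WT replicates 1 to 3 and 138017 to 354004 in replicates 4 to 6, and 65615 to 97017 and 141835 to 894609 in V1. Their part in the Rab3d values was not tested. Against B6 WT replicates 1 to 3 alone, the log2 difference was -1.15 in V2 (adjusted p = 0.40) and -1.38 in V3 (adjusted p = 0.11), and against replicates 4 to 6 alone it was -0.03 and -0.26. V1 lay 0.76 above the mean of V2 and V3 on the log2 scale (limma, adjusted p = 0.52), and 1.32 above it without the low-marker libraries (adjusted p = 0.0502). Rab27a was also lower in replicates 4 to 6 by limma (log2 term -0.61, adjusted p = 0.020, beside the same 41.6% of all genes). The terms of the other members did not pass (Rab26 0.51, Rab32 -0.42, Rab27b -0.18 and Rab38 -0.18, lowest adjusted p = 0.052).

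Of the melanosomal Rabs, Rab32 ran from 231 through 286 to 359 normalized counts in B6 WT RPE and from 177 through 306 to 388 in V1 RPE. The means were nearly equal at 290 ± 45.0 and 290 ± 91.0 (SD, n = 6 each), and the log2 difference was -0.05 (95% interval -0.46 to 0.36, adjusted p = 0.97 by limma). It was read at 316, 321 and 420 in V2 and at 215, 241 and 301 in V3. The 3 lowest of all 18 libraries (177, 190 and 215) were the low-marker libraries.

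Rab38, which acts beside Rab32 in carrying melanosomal enzymes, ran from 783 through 1175 to 1259 in B6 WT RPE and from 620 through 968 to 1431 in V1 RPE. The log2 difference was -0.16 (SE 0.20, 95% interval -0.59 to 0.27, adjusted p = 0.90 by limma). Its 3 lowest libraries (573, 620 and 720) were again the low-marker ones. In V2 it was read at 1269, 1301 and 1442, each above the highest B6 WT library, with a log2 difference of 0.31 (95% interval -0.22 to 0.83) that did not pass (limma, adjusted p = 0.96). In V3 it was read at 573, 753 and 1060, with a log2 difference of -0.49 (adjusted p = 0.46).

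In V2 and V3 RPE, 0 of the 6 other members passed by limma, edgeR or DESeq2, against 0.069% of all genes in each by limma. At an unadjusted p under 0.05 the count was 0 in V2 by all 3 tools, and in V3 it was 0 by limma and edgeR and 1 by DESeq2. The non-overlap of Rab38 in V2 was 1 of 6 members, where 5.66% of all genes did not overlap, and in V3 it was 0 of 6 (4.32% of all genes). V1 was also set against the mean of V2 and V3, and 0 of 6 passed by any of the tools (0.207% of all genes by limma), with 0 members at an unadjusted p under 0.05 by limma and 1 each by edgeR and DESeq2.

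**Figure D2:**
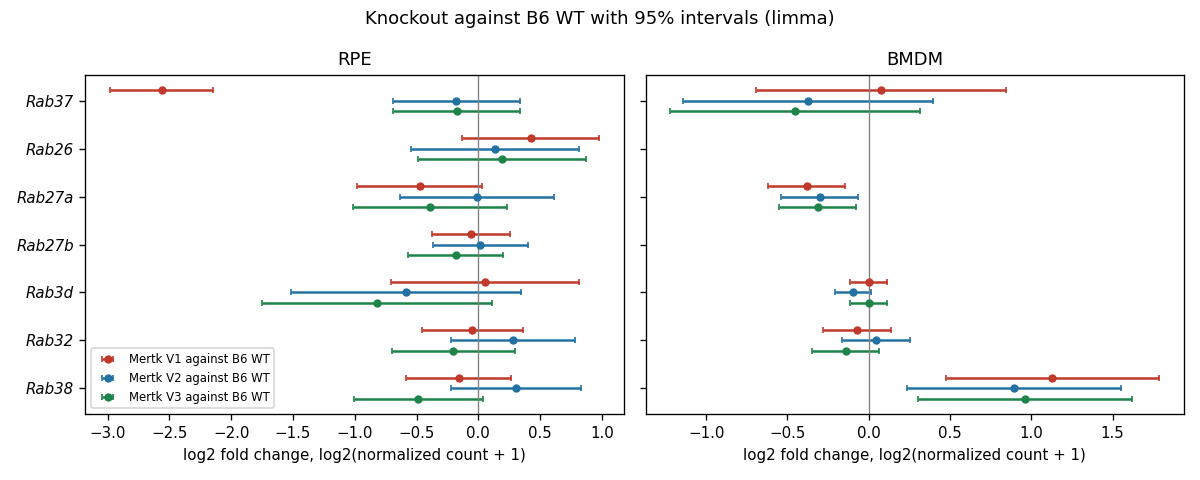
Log2 differences of each knockout from B6 WT with 95% intervals from limma, in RPE (left) and BMDMs (right), one row per gene and one colour per line, on the log2(normalized count + 1) scale. Rab37 in V1 RPE lies at -2.56, apart from its own values of -0.18 in both other lines, and Rab38 in BMDMs lies at 0.89 to 1.13. The intervals of Rab37 are no test, since the gene was chosen by these values. Rab26 and Rab27b were too low in BMDMs to be fitted.

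The 3 low-marker libraries moved together in Rab27a, Rab32 and Rab38 but not in Rab37 within V1. V1 replicates 5 and 6 held 470 and 290 normalized counts of Rab37, inside or next to the range of 275 to 445 in replicates 1 to 4, while their Rab27a was 5725 and 5158 against 9968 to 13258 in replicates 1 to 4. The part of RPE content in these values was not tested.

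**Figure D3:**
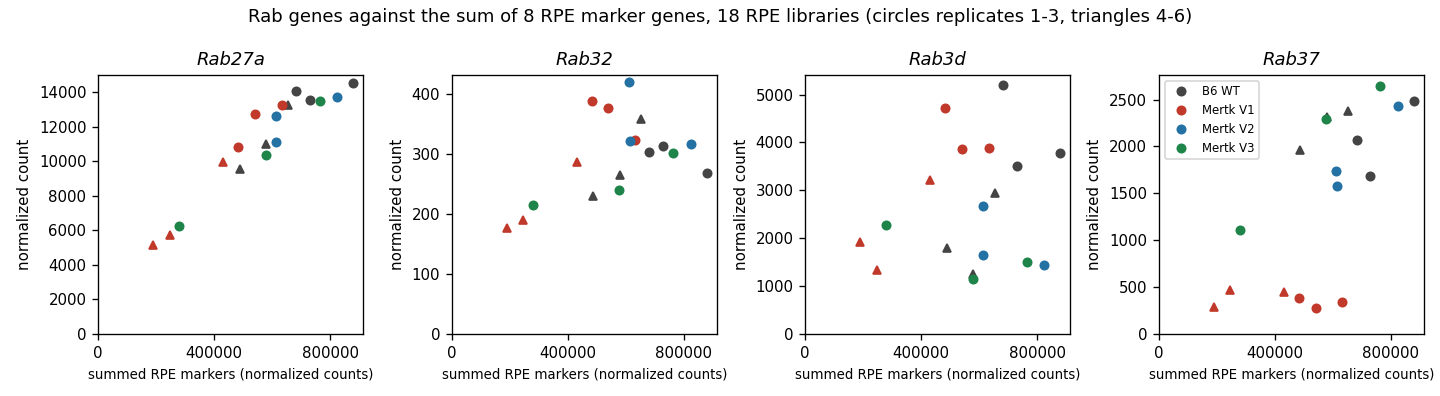
Normalized counts of Rab27a, Rab32, Rab3d and Rab37 (linear vertical axes) against the summed normalized counts of 8 RPE marker genes (horizontal axis) in the 18 RPE libraries, coloured by genotype (circles for replicates 1 to 3, triangles for 4 to 6). The 3 libraries with the lowest sums hold the 3 lowest values of Rab27a and of Rab32. The V1 points of Rab37 stay between 275 and 470 over the range of sums in V1 (189619 to 632445).

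Per length, the order of the members in B6 WT RPE was led by Rab27a. Levels are given in RPKM, computed here as recovered reads per kilobase of merged exons per 1000000 reads on genes. Rab27a stood at 124 ± 12.4 RPKM (SD, n = 6), followed by Rab3d at 27.5 ± 11.3, Rab38 at 26.8 ± 5.81 and Rab37 at 15.5 ± 2.31. Rab3d overlapped both Rab38 and Rab37, while Rab38 and Rab37 did not overlap each other. Below them were Rab27b at 8.49 ± 1.19, Rab32 at 4.74 ± 0.642 and Rab26 at 0.353 ± 0.126, with no overlap between neighbours. In V1 RPE, Rab37 stood at 2.73 ± 0.641 RPKM, overlapping the lower end of Rab32 (4.84 ± 1.30).

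The order was different in B6 WT BMDMs, where Rab32 led at 63.6 ± 2.47 RPKM (SD, n = 3), followed by Rab3d at 22.996 ± 0.549 and Rab27a at 3.77 ± 0.270, none overlapping the next. Rab38 at 0.278 ± 0.104, Rab37 at 0.115 ± 0.0135 and Rab26 at 0.0411 ± 0.0359 were near the limit of detection, and Rab27b had no read in B6 WT. Rab27b had 1 read in 1 BMDM library (V1 replicate 2) and 0 in the other 11, and a count of 0 allows up to 3 reads per library, which covers counting error only. Rab26 had 0 to 5 reads per BMDM library. Rab26 and Rab27b fell under the minimum mean of 10 normalized counts and were not tested in BMDMs. The macrophage markers summed to 316125 to 363112 in the BMDM libraries.

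Rab37 in BMDMs was read at 13.2, 10.6 and 13.7 normalized counts in B6 WT, at 19.96, 9.998 and 11.2 in V1, at 12.1, 10.1 and 6.65 in V2 and at 10.9, 9.59 and 6.43 in V3. These are 7 to 17 reads per library, and all groups overlapped B6 WT. The log2 differences from B6 WT were 0.08 in V1 (95% interval -0.69 to 0.84), -0.37 in V2 and -0.45 in V3. The V1 difference in RPE minus that in BMDMs was -2.64 on the log2 scale. The gene was chosen for this contrast between the tissues, so these values are a description.

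Rab38 passed in V1 BMDMs by limma, at a level near the limit of detection. It was read at 5.75, 12.2 and 8.79 normalized counts in B6 WT and at 22.3, 20.996 and 16.9 in V1, that is, at 7 to 15 against 15 to 21 reads. V2 held 14.6, 16.1 and 19.9 and V3 18.6, 20.3 and 14.5. All 9 knockout libraries lay above all 3 B6 WT libraries. The log2 difference from B6 WT was 1.13 in V1 (SE 0.31, 95% interval 0.47 to 1.79), which passed in limma (adjusted p = 0.041) and edgeR (adjusted p = 0.044) and had an unadjusted p of 0.0097 and no adjusted p in DESeq2. Its B6 WT mean of 8.92 was under the minimum of 10 normalized counts, so it entered the test only through the knockout groups (means of 20.1, 16.9 and 17.8), and the call gives no independent support. It was 0.89 in V2 (limma, adjusted p = 0.11) and 0.96 in V3 (adjusted p = 0.15). The call in V1 was lost with no filter on low values (adjusted p = 0.13) and when B6 WT replicate 1 or 3 or any V1 replicate was left out (highest adjusted p = 0.17), and held without B6 WT replicate 2 (adjusted p = 0.049). V1 did not differ detectably from the mean of V2 and V3 at this depth (log2 difference 0.20, 95% interval -0.36 to 0.77, limma adjusted p = 0.81).

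Rab27a in BMDMs was read at 320, 294 and 280 normalized counts in B6 WT, at 225, 241 and 219 in V1, at 218, 227 and 283 in V2 and at 215, 245 and 260 in V3. Of the 9 knockout libraries, 8 lay below all B6 WT libraries, the exception being V2 replicate 3. The log2 difference in V1 was -0.38 (SE 0.11, 95% interval -0.62 to -0.14), with an adjusted p of 0.054 in limma, 0.053 in edgeR and 0.039 in DESeq2, so it passed in DESeq2 alone. In V2 it was -0.30 (limma, adjusted p = 0.13, and 0.027 without V2 replicate 3) and in V3 -0.31 (adjusted p = 0.18).

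Rab32, the most abundant of the 7 in BMDMs, was read at 2943 to 3078 in B6 WT, 2758 to 3021 in V1, 2738 to 3915 in V2 and 2692 to 2839 in V3. All V3 libraries lay below B6 WT, and the value of 3915 was from V2 replicate 3. The log2 differences were -0.07, 0.05 and -0.14 (lowest adjusted p = 0.51 by limma). Rab3d stood at 1736 to 2058 over all 12 BMDM libraries, with log2 differences of 0.00 in V1 and V3 and -0.10 in V2 (lowest adjusted p = 0.31 by limma).

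**Figure D4:**
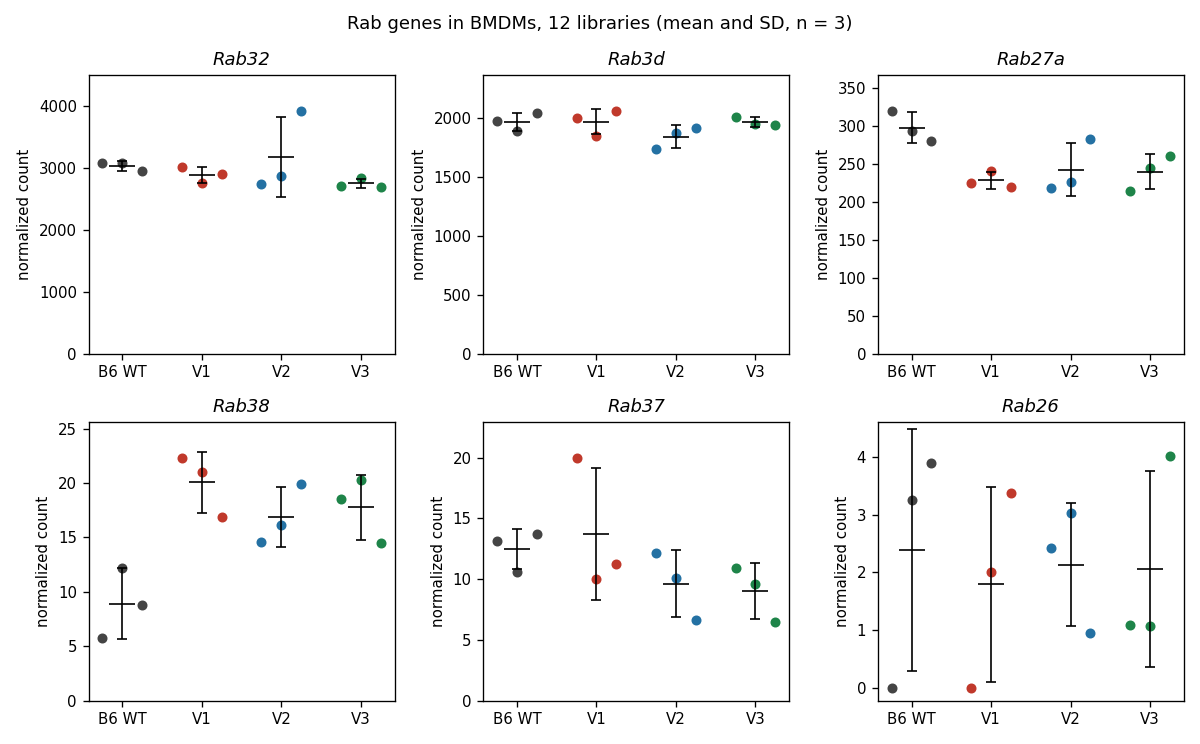
Normalized counts of 6 of the Rab genes in the 12 BMDM libraries, one panel per gene on a linear axis, with points for libraries and bars for the mean and SD of each genotype (n = 3). Rab38 in all 9 knockout libraries (14.5 to 22.3) sits above B6 WT (5.75 to 12.2), and Rab37 and Rab26 reach at most 19.96 in all groups. Rab27b, with 1 read in all, is not drawn.

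Counted over the 4 members other than Rab37 that were tested in BMDMs, 1 passed in V1 by limma (Rab38, subject to that filter), where 7.07% of all genes passed, and 2 had groups that did not overlap (30.9% of all genes). In V2 and V3, 0 of 4 passed by limma, edgeR or DESeq2 (4.61% and 1.17% of all genes by limma), with 2 members in each at an unadjusted p under 0.05 by all 3 tools, where 21.4% and 15.9% of all genes were by limma. Groups did not overlap for 1 of 4 in V2 (22.7% of all genes) and 3 of 4 in V3 (25.4%). Rab38 is among the members in each of these non-overlap counts, and in the unadjusted counts of V2 and V3 by limma. It entered the test only through the knockout groups, so its part in these counts gives no independent support. Between V1 and the mean of V2 and V3, 0 of 4 passed by any of the tools (0.991% of all genes by limma), and 0 had an unadjusted p under 0.05.

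The V1 difference was compared between tissues in one limma model for the 4 members other than Rab37 that were tested in both. Rab38 had the widest gap, with the RPE difference 1.29 lower than the BMDM difference (log2 difference -1.29, SE 0.34, 95% interval -1.98 to -0.59, adjusted p = 0.12). In BMDMs Rab38 held at most 21 reads per library and reached the minimum mean only through the knockout groups. The gap therefore gives no independent support. For Rab27a, Rab3d and Rab32 it was -0.09, 0.05 and 0.02. Of the 4, 0 passed by limma or edgeR (0.376% of all genes by limma). By each tool 1 had an unadjusted p under 0.05 (8.79% of all genes by limma), which by limma was Rab38, subject to that filter.

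The other 52 Rab genes of the RPE table that were expressed did not pass between any knockout and B6 WT in RPE by limma, edgeR or DESeq2 (0 by each). Among all genes, 0.388%, 0.069% and 0.069% passed in V1, V2 and V3 by limma. At an unadjusted p under 0.05, limma counted 1 in V1, 1 in V2 and 9 in V3, beside 6.81%, 5.47% and 11.1% of all genes. Their median log2 difference in V1 RPE was 0.03, beside 0.02 over all genes tested, and the highest was 0.73. Rab20, with the smallest p in V1, was also the lowest (log2 difference -0.55, adjusted p = 0.69). In BMDMs 1 of 44 passed in V1 by limma (7.07% of all genes). It was Rab39 (chr9:53684110-53706232), a Rab of endosomal traffic, with 41.0 ± 9.57 normalized counts against 72.1 ± 11.6 in B6 WT (SD, n = 3 each, log2 difference -0.82, adjusted p = 0.029 by limma). Rab39 stood at 50.9 ± 6.97 in V2 and 73.8 ± 5.31 in V3 (n = 3 each). V1 did not pass against the mean of V2 and V3 (log2 difference -0.59, adjusted p = 0.20 by limma).

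Effectors of Rab27 and Rab3 bind these Rabs in their GTP-bound form and tether or move the vesicle. Synaptotagmin-like proteins, melanophilin, Myrip, Munc13-4, rabphilins and Rims were listed, with myosins that some of them link to Rab27a. None of these genes passed in RPE for any line (0 of 15 by limma, edgeR and DESeq2). Over all genes, 0.388%, 0.069% and 0.069% passed in V1, V2 and V3 by limma. At an unadjusted p under 0.05, limma counted 1 of 15 in each line, beside 6.81%, 5.47% and 11.1% of all genes in V1, V2 and V3. In V1 it was Myrip, which links Rab27a to myosin VIIa in the RPE (log2 difference -0.52, adjusted p = 0.63 by limma). In BMDMs 3 of the 15 were expressed, and Unc13d (Munc13-4), an effector of Rab27a in granule release, rose in V3 from 1016 ± 35.2 to 1223 ± 24.6 (log2 difference 0.27, adjusted p = 0.023 by limma, where 1.17% of all genes passed). In V1 and V2 BMDMs 0 of the 3 passed by limma or edgeR, with 3 and 2 at an unadjusted p under 0.05 (23.6% and 21.4% of all genes), and 1 and 2 passed by DESeq2.

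The machinery that serves Rab32, Rab38 and Rab27 at melanosomes and related organelles (HPS, AP-3 and BLOC subunits and partners) was listed as 20 genes. In V1 RPE 0 of them passed by limma (0.388% of all genes) and edgeR, and 1 by DESeq2. That one was Bloc1s6 (pallidin, a BLOC-1 subunit), which lies on chromosome 2 at chr2:122738503-122749475, with 1047 ± 99.3 normalized counts against 823 ± 78.9 in B6 WT (log2 difference 0.35, adjusted p = 0.15 by limma and 0.022 by DESeq2). Against the mean of V2 and V3 it was higher by 0.47 on the log2 scale (adjusted p = 0.037 by limma, 0.058 by edgeR). In V1 BMDMs it rose from 900 ± 76.3 to 1378 ± 22.8 (log2 difference 0.62, adjusted p = 0.00015), and Ap3d1, Hps3 and Vps33b rose by 0.19, 0.27 and 0.31 on the log2 scale (highest adjusted p = 0.024). These were 4 of 20 in V1 BMDMs, beside 7.07% of all genes, and the median of the 20 was 0.01. Ap3d1, Hps3 and Vps33b had means of 5852, 910 and 386 in B6 WT BMDMs. In V2 they had 6337, 1039 and 467, and in V3 6487, 920 and 444. Against the mean of V2 and V3 in BMDMs, Bloc1s6 passed (log2 difference 0.63, adjusted p = 3.0e-05 by limma), and Ap3d1, Hps3 and Vps33b did not.

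Lrmda, which encodes an effector of Rab32 and Rab38 in melanosome formation (chr14:22019712-23056085), was lower in V3 in both tissues. In RPE it ran from 46.9 to 84.8 normalized counts in V3 against 169 to 312 in B6 WT, without overlap (log2 difference -1.83, adjusted p = 0.018 by limma and 0.054 by edgeR). In BMDMs it ran from 15.99 to 27.3 against 147 to 174 (log2 difference -2.81, adjusted p = 8.4e-07 by limma). Its means in V1 and V2 RPE were 204 ± 68.9 and 276 ± 54.7, beside 242 ± 51.1 in B6 WT. In the same V3 libraries Rab32 and Rab38 did not pass (RPE log2 differences -0.20 and -0.49).

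Melanosome cargo, the enzymes and membrane proteins of the pigment granule (Tyr, Tyrp1, Dct, Pmel, Mlana, Oca2, Slc45a2, Gpr143, Slc24a5 and Gpnmb), did not pass in RPE in any line (0 of 10 by limma, edgeR and DESeq2). The share of all genes that passed by limma was 0.388% in V1 and 0.069% in each of V2 and V3. Their median log2 difference was -0.21 in V1, 0.32 in V2 and -0.17 in V3. Oca2, a melanosomal membrane protein, had the smallest p in V1 (log2 difference -0.57, adjusted p = 0.69 by limma). It was the 1 of 10 at an unadjusted p under 0.05 there by limma, beside 6.81% of all genes.

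Regulators of Rab proteins and the SNARE proteins with which secretory Rabs act also had 0 passes in RPE in each line by limma, edgeR and DESeq2 (of 17 and 15 tested). Of all genes, 0.388%, 0.069% and 0.069% passed in V1, V2 and V3 RPE by limma. By limma 1 regulator in V3 and 0 genes otherwise had an unadjusted p under 0.05, beside 6.81%, 5.47% and 11.1% of all genes. In BMDMs Rabggta, a subunit of the enzyme that prenylates Rab proteins, rose by 0.30 in V1 and 0.29 in V2 (highest adjusted p = 0.029). In V3 Rabggta ran from 554 to 618 normalized counts against 473 to 507 in B6 WT, without overlap, and did not pass. The SNARE genes Snap23, on chromosome 2 at chr2:120567671-120601255, and Vamp2 rose in V1 by 0.37 and 0.31 (adjusted p = 0.017 and 0.030), and Vamp2 rose by 0.33 in V2 (adjusted p = 0.030). By limma 2 of 16 regulators and 2 of 13 SNARE genes passed in V1 BMDMs, beside 7.07% of all genes. In V2 BMDMs 2 of 16 and 1 of 13 passed, beside 4.61%.

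Genes next to Rab37 on chromosome 11 were looked at in the same libraries. Cd300lf, which lies inside the Rab37 gene on the other strand with 0 exon bases shared, had 28.8 normalized counts in V1 RPE against 62.7 in B6 WT (log2 difference -1.47, adjusted p = 0.31 by limma). Slc9a3r1, a scaffold protein of apical membranes that starts 1105 bases downstream of Rab37, had 5737 against 10439 (log2 difference -0.93, unadjusted p = 0.0020, adjusted p = 0.20). In BMDMs their differences were 0.36 (adjusted p = 0.14) and 0.02. Of the 58 genes tested within 1000000 bases of Rab37, 0 passed in V1 RPE by limma other than Rab37, which was left out, and 9 had an unadjusted p under 0.05 (6.81% of all genes). In V2 and V3 RPE 0 of the 58 passed by limma, and 7 and 8 had an unadjusted p under 0.05 (5.47% and 11.1% of all genes). In BMDMs 49 were tested other than Rab37, of which 6 were higher and 1 lower in V1, 2 higher and 4 lower in V2 and 1 higher in V3 (limma, beside 7.07%, 4.61% and 1.17% of all genes), with 23, 15 and 14 at an unadjusted p under 0.05 (23.6%, 21.4% and 15.9%).

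The genes whose pattern over the 18 RPE libraries was most like that of Rab37 (Pearson r of log2 values, as a description) were Vipr2 (r = 0.958), Fam81a (0.919), Tyro3 (0.916), Ivd (0.911) and Eif3j1 (0.908). The last 3 lie on chromosome 2, Vipr2 on chromosome 12 and Fam81a on chromosome 9. Vipr2, a receptor for vasoactive intestinal peptide, had 914 ± 137 normalized counts in V1 RPE (SD, n = 6) against 1562 ± 94.4 in B6 WT (n = 6). The other members were far less like Rab37, with r from -0.39 (Rab26) to 0.46 (Rab27a) over the same libraries, which share the genotypes, the sets of replicates and the RPE content described above.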

How the data were processed

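RNA of 18 RPE and 12 BMDM libraries was analysed. The authors used btrim to trim the paired-end reads, STAR to align them to GRCm38, and DESeq2. The counter, the annotation and the versions are not given in the sources used here. The deposited signal is gene counts that the authors divided by 1 size factor per library. Dividing by the value of 1 read gave whole reads for 100% of values (tolerance 0.001 read). No deposited column was left unused (0).

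limma 3.58.1 in R 4.3.3 was run on log2(value + 1), with 4 genotypes per tissue in one model, over genes whose mean reached 10. p-values were adjusted by Benjamini-Hochberg over all genes tested, and a gene passed at an adjusted p under 0.05. edgeR 4.0.16, DESeq2 1.42.0, a pseudocount of 5, no filter, a log2 threshold of 1.25 and other sets of libraries were alternatives. Scripts were tested on simulated data. Positions came from GENCODE mouse release 21 (55480 identifiers matched, 93 not). Gene tables of RPE and BMDMs were scaled separately.

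The members and the gene lists were chosen with earlier results of these data known. Named genes were the members, Mertk, list genes that passed (otherwise the smallest p of a list), the neighbours of members and the 5 genes most like Rab37 in RPE. Neighbours of members other than Rab37 are given only where they share exons with a member, and values of list genes with the smallest p are given for V1 RPE. Among the regulators of Rab proteins, not every gene that passed in BMDMs is reported here.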

Additional observations from a re-analysis of the deposited data

How the results depend on the processing

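Depth limits Rab37, Rab38 and Rab26 in BMDMs, where a library held at most 21 reads of any of them, and Rab26 in RPE. Of the members' values, 303 of the alternatives that keep all libraries or named sets kept direction and side of the threshold (for Rab37, moved by less than the spread), 24 reversed, 5 gained a call and 2 lost one. The largest main value among the reversed ones was -0.27 (Rab27a in V1 RPE against both other lines). The causes were not tested. For Rab37 in V1 RPE the log2 difference stayed between -2.64 and -2.49.

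The counts of genes past the test were 73, 13, 13 and 39 in RPE (V1, V2, V3 and V1 against the mean of both others), 949, 618, 157 and 133 in BMDMs and 47 for the tissue difference. With no filter they were 606 and 353 (V1 and V2 BMDMs, 0 members in the former) and 20 and 37 (V2 and V3 RPE). With the log2 threshold of 1.25 they were 57, 34, 21 and 26 in BMDMs (0 members in V1), 28 in V1 RPE, 18 against both other lines and 28 for the tissue difference. With DESeq2 they were 202, 55, 62 and 150 in RPE and 401 in V3 BMDMs. In V1 RPE the count was 139 with the set of replicates as a term, 23 within replicates 1 to 3 and 1 within replicates 4 to 6. Against B6 WT replicates 1 to 3 alone it was 7 in V2, and against replicates 4 to 6 alone 4 in V2 and 4 in V3. These 2 settings and the next were added after the data had been seen. Without the low-marker libraries it was 25 in V3 and 701 for V1 against both other lines. With only RPE replicates 1 to 3 the tissue difference gave 75.

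Reversed log2 differences were as follows. With edgeR they were Rab3d in BMDMs (0.0027 in V1, 0.0018 in V3), Rab32 in V1 RPE (0.0042) and Rab27a between tissues (0.0074), and with DESeq2 the same Rab3d values (0.0040 and 0.0020) and Rab32 (0.0064). Within replicates 1 to 3 of V1 and B6 WT RPE, Rab27b was 0.20, Rab32 0.30 and Rab38 0.33. Without the low-marker libraries they were 0.14, 0.25 and 0.11 in V1 RPE, and Rab32 and Rab38 were 0.16 and 0.089 against both other lines. Rab37 in V3 RPE also changed sign without these libraries, from -0.18 to 0.21. It was judged by its spread and is not counted among the reversed values. Against B6 WT replicates 4 to 6, Rab26, Rab27a and Rab27b were -0.11, 0.15 and -0.022 in V2 and Rab26 -0.056 in V3. With only RPE replicates 1 to 3, Rab27a between tissues was 0.18.

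The labels do not say that a number pairs libraries, and same-numbered libraries did not all deviate together (r of -0.46 to 0.72 over 21 pairs in RPE, median 0.15 beside -0.0034 for other pairs, and -0.30 to 0.36 over 18 in BMDMs, median -0.093 beside 0.042). For 3 of 18 RPE and 5 of 12 BMDM libraries the closest library of another genotype had the same number. In RPE the numbers also mark the sets 1 to 3 and 4 to 6, so the block there takes up the difference between the sets. With the replicate number as a block the counts were 565, 305 and 77 in BMDMs (0 members in V1, Rab38 adjusted p = 0.067 by limma), 131, 706, 5619 and 2329 in RPE and 74 for the tissue difference. Of the 6 members tested in RPE, those past the test under the block were Rab3d in V2 (1, beside 706 of 18832 genes tested) and Rab3d and Rab27a in V3 (2, beside 5619 of 18832). Against both other lines it was Rab3d (1, beside 2329 of 18832). Under the block Rab27a, Rab32 and Rab38 against both other lines turned to 0.029, 0.12 and 0.018, and Rab27b in V2 RPE to -0.078.

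Leaving out 1 library at a time gave 6 to 12, 5 to 16 and 23 to 186 genes in RPE (V2, V3 and V1 against both), 243 to 1200, 148 to 1168, 33 to 249 and 74 to 266 in BMDMs and 15 to 62 between tissues, with 0 to 1 members in V1 and V2 BMDMs. Members whose log2 difference changed sign were, in V1 RPE, Rab27b (-0.14 to 0.046), Rab3d (-0.18 to 0.28) and Rab32 (-0.15 to 0.080). Against both other lines they were Rab27b (-0.052 to 0.13), Rab32 (-0.19 to 0.041) and Rab38 (-0.18 to 0.058). In V2 RPE they were Rab27a (-0.089 to 0.071) and Rab27b (-0.092 to 0.17), and in V3 RPE Rab26 (-0.020 to 0.44) and Rab37 (-0.42 to 0.21). In BMDMs they were Rab37 in V1 (-0.21 to 0.26), Rab3d in V1 (-0.033 to 0.043) and V3 (-0.031 to 0.026), and Rab32 in V2 (-0.11 to 0.14) and against both others (-0.070 to 0.059). Between tissues they were Rab27a (-0.20 to 0.068), Rab3d (-0.17 to 0.28) and Rab32 (-0.077 to 0.15).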
